A study of Homo sapiens with 25 samples.

Results

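The RA-activated H3K27ac regions of NB4 cells are stretches of chromatin in which an H3K27ac peak was called with retinoic acid (RA) at 1 µM and with MC_2580 plus RA at 0.01 µM, and none was called with MC_2580 alone or in the solvent DMSO. They were found by merging the peaks of the 5 H3K27ac lists that overlapped by at least 1 base; a call with RA at 0.01 µM alone was allowed but not required. Of 64202 merged regions, 5122 (7.98%) met the rule and are called RA-activated regions here. The H3K27ac calls chose these regions, so that every H3K27ac value below is a description.

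NB4 cells, an established line derived from human acute promyelocytic leukemia, were treated for 24 h with RA 0.01 µM, with RA 1 µM, with MC_2580 + RA 0.01 µM (the combination), with MC_2580, which inhibits LSD1 (KDM1A), a histone demethylase, or with DMSO. ChIP-seq, which sequences the DNA bound to an immunoprecipitated protein, was run for H3K27ac, H3K4me1, H3K4me2 and H3K4me3 in all 5 conditions, for LSD1 with MC_2580 and with DMSO, and for GFI1 in untreated cells. Each group held 1 library, so no difference between conditions has a replicate check and no p-value is given. No dose of MC_2580 appears in the labels, and the H3K4me3 combination library carries a title naming RA 1 µM against a treatment field naming 0.01 µM, the one followed here.

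Active enhancers and promoters carry H3K27ac. H3K4me1 marks enhancers, including enhancers that are not acetylated and are then called primed, while H3K4me3 marks promoters and H3K4me2 occurs at both. LSD1 removes methyl groups from mono- and dimethylated H3K4, and the DNA-binding repressor GFI1 brings LSD1 to its target sites in blood cells. RA binds retinoic acid receptors, among them the PML-RARA fusion protein of promyelocytic leukemia, and drives such cells toward granulocytes.

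The H3K27ac lists held 55793 peaks with RA 0.01 µM, 38808 with RA 1 µM, 41191 with the combination, 24552 with MC_2580 and 32789 with DMSO. The MC_2580 list was the shortest, and leaving it out of the rule gave 5677 regions. Sequencing depth is unknown from peak lists, and the 95% intervals given for shares (exact binomial) and for differences between shares (Newcombe) cover counting error only.

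A further H3K27ac peak with RA 0.01 µM alone was called in 3491 of the RA-activated regions (68.2%, interval 66.9 to 69.4), against 77.0% of all merged regions, most of which come from that longest list. The score that the authors' peak caller gave to each peak runs from 50, its lowest value in the histone lists, to a pile-up at 3100. RA-activated regions had a median best score of 190 with RA 0.01 µM, 128 with RA 1 µM and 124 with the combination. The medians over the whole lists were 158, 242 and 208 in the same order, so the regions sat mostly in the upper part by score of the RA 0.01 µM list and in the lower part of the other lists. Both required peaks scored 100 or more in 2267 regions (44.3%), and both scored under 100 in 1099 (21.5%). Scores with RA 1 µM and with the combination ranked the regions alike only in part, with a Spearman rho of 0.49 across 5122 regions of the same cell line, which share their width and local chromatin.

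Regions with higher scores in the required peaks also had a RA 0.01 µM peak more often. Where the lower of the 2 required scores was 500 or more, 288 of 318 regions (90.6%) also had a RA 0.01 µM peak, against 60.7% of the 2855 regions with a lower score under 100. The same order held for prior H3K4me1 in DMSO, which was called in 84.6% of the strongest regions and in 54.5% of the weakest. Width moved with strength, at a median of 6671 bases in the strongest and 2704 bases in the weakest regions, and its part in these orders was not tested. The tiers rest on scores of the peaks that the rule required, and no other class was set beside them. These orders are therefore a description and not a trait of RA-activated regions.

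At the edge of the rule, 911 regions had a lower score under 60. The lowest of them lay at chr2:240306687-240317311 on the hg18 build, with scores of 519 with RA 0.01 µM, 50 with RA 1 µM and 50.5 with the combination, and with no methylation peak in any condition. On the other side of the edge, 3690 regions had both required peaks and exactly 1 peak of MC_2580 or DMSO, and in 590 of these that peak scored under 60. One such region, chr9:128332904-128337679, had H3K27ac scores of 482 with RA 0.01 µM, 255 with RA 1 µM, 75.6 with the combination and 50 with MC_2580. A region without a peak in DMSO is therefore one in which the threshold was not reached, not one shown to lack acetylation.

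The regions with the highest H3K27ac scores under RA differed in their prior H3K4 methylation. In 22 regions both required scores reached the pile-up at 3100, so these regions are tied, and they are taken here in order of width. The widest of them, and the second widest of all RA-activated regions, was chr10:125742661-125828315, an 85655-base stretch with an H3K27ac score of 3100 in each of the 3 RA conditions. Its H3K4me1 score was 3100 in each RA condition as well, against 712 with MC_2580 and 601 with DMSO, and its H3K4me2 scores were 965 with RA 0.01 µM, 3100 with RA 1 µM, 3100 with the combination, 585 with MC_2580 and 419 with DMSO. H3K4me3 was called at 706, 648 and 1358 with RA 0.01 µM, RA 1 µM and the combination and at 67 with MC_2580, with no peak in DMSO. This region also held LSD1 peaks with MC_2580 (score 636) and DMSO (948) and a GFI1 peak (392), and it was 1 of the 177 regions that carried both LSD1 in DMSO and GFI1. The nearest H3K27ac peak of MC_2580 or DMSO lay 129323 bases away.

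At a gap of 8 bases from it, chr10:125828324-125859695 was 1 of only 2 RA-activated regions in which all 3 methylation marks were called with RA 1 µM and the combination and with neither MC_2580 nor DMSO, a pair picked out after its values were seen. Its H3K27ac scores were 474, 669 and 1465 with RA 0.01 µM, RA 1 µM and the combination. H3K4me1 was called at 55, 202 and 663 and H3K4me2 at 183, 595 and 966 in the same order. The other of the pair, chr9:27689737-27694010, had H3K27ac scores of 1208 with RA 1 µM and 349 with the combination and no H3K27ac peak with RA 0.01 µM, where its H3K4me1 peak nevertheless scored 597. Methylation was thus called there at the low dose without an acetylation peak.

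Other leading regions show the range. At chr20:39060350-39080074, next in width among the tied regions, all 3 methylation marks, LSD1 and GFI1 were already called in DMSO, and H3K4me1 scored 1509 with RA 0.01 µM, 2501 with RA 1 µM, 3100 with the combination, 1208 with MC_2580 and 1176 with DMSO. Another tied region, chr16:65018866-65037085, had no H3K4me1 peak with MC_2580 or DMSO and scored 1914, 2136 and 3100 with RA 0.01 µM, RA 1 µM and the combination, while H3K4me2 was called in all 5 conditions. Neither LSD1 nor GFI1 was called there. A narrower one, chr17:22624231-22641035, carried H3K4me1 alone among the methylation marks in DMSO (score 323) and a GFI1 peak (162). At chr13:110112070-110119846, the strongest region with no methylation peak in DMSO, H3K4me1 was called at 743, 1196 and 1947 with RA 0.01 µM, RA 1 µM and the combination and was not called with MC_2580. Scores from different libraries depend on each library's depth and are set side by side here without a test.

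Before treatment with RA, most of these regions already carried H3K4me1. In DMSO, H3K4me1 was called in 3206 RA-activated regions (62.6%, interval 61.3 to 63.9; 53.5% of all merged regions). H3K4me2 was called in 1180 (23.0%, 21.9 to 24.2; 33.2% of all) and H3K4me3 in 758 (14.8%, 13.8 to 15.8; 25.3% of all). The commonest state was H3K4me1 without the other marks, found in 2051 regions (40.0%, against 21.0% of all merged regions). No methylation peak was called in 1800 regions (35.1%, against 44.6% of all), H3K4me1 with H3K4me2 in 444 (8.67%, near the 7.82% of all) and all 3 marks in 645 (12.6%, against 23.8% of all). The other regions held rarer states of 22 to 69 regions each. Regions that gained acetylation were thus richer in lone H3K4me1 and poorer in the 3-mark state than the merged regions at large. The merged regions include 19071 called only with RA 0.01 µM, of which 13.3% had H3K4me1 in DMSO. That class holds only 2537 of the 34316 merged regions with H3K4me1 in DMSO and so lowers the share over all merged regions. Without it the share of the remaining merged regions lies above 62.6%, so the contrast of 62.6% with 53.5% turns round.

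Classes of H3K27ac region defined by other calls put these shares in place. Of 15212 regions called in all 5 H3K27ac lists, 97.1% had H3K4me1 in DMSO, 87.6% H3K4me2 and 76.5% H3K4me3. Of 769 regions lost with RA (called with MC_2580 and DMSO, and with neither RA 1 µM nor the combination), 74.6% had H3K4me1, 12.0 points more than RA-activated regions (difference of RA-activated minus lost −12.0, interval −15.3 to −8.6). The H3K4me3 shares of these 2 classes, 14.8% in RA-activated and 15.9% in lost regions, differed by −1.07 points with an interval of −3.98 to 1.54. The 3964 regions called only in the combination had H3K4me1 in 38.1%, and RA-activated regions exceeded them by 24.5 points (22.5 to 26.5). By width the difference was 7.32 points (−7.57 to 24.5) under 1 kb, 24.9 (21.2 to 28.5) at 1 to 2 kb, 16.0 (12.2 to 19.7) at 2 to 4 kb and −1.46 (−8.63 to 6.45) at 4 kb and over.

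**Figure D1:**
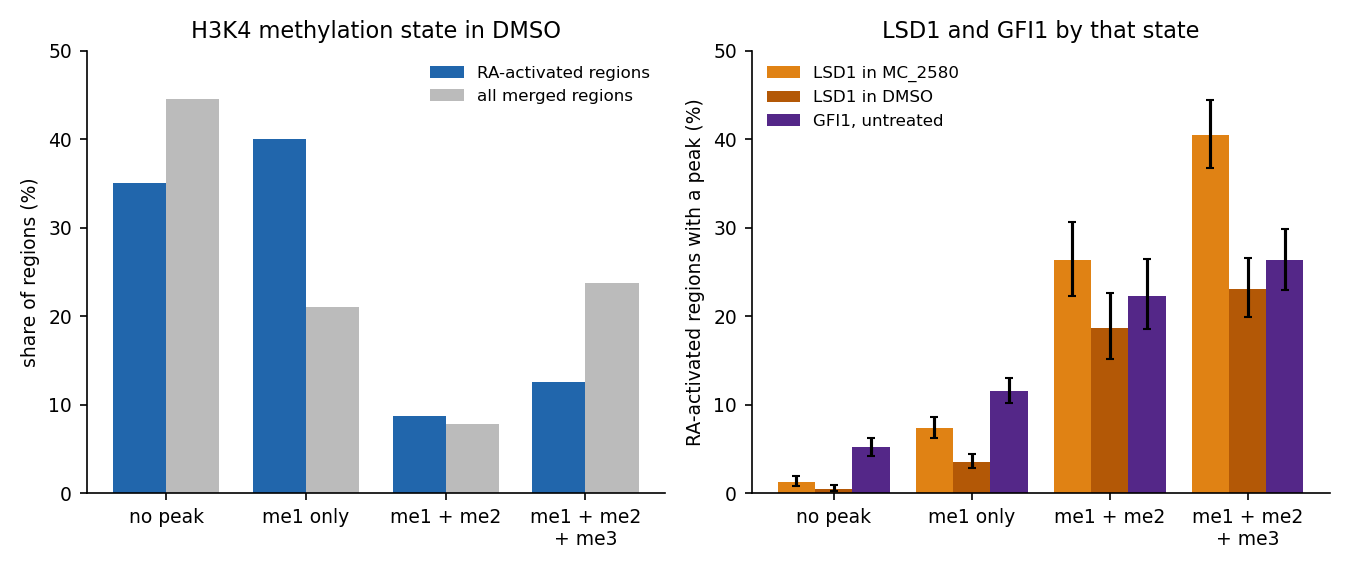
Left, share of regions (%) in the 4 commonest H3K4 methylation states in DMSO, for the 5122 RA-activated regions and all 64202 merged regions; right, share of the RA-activated regions in each state with a peak of LSD1 or GFI1, with exact 95% binomial intervals. Lone H3K4me1 was the commonest state at 40.0% of RA-activated regions, and LSD1 in DMSO ran from 0.444% without methylation to 23.1% with all 3 marks.

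H3K4me1 was called in more of these regions than in DMSO in every RA condition, and in slightly fewer with MC_2580. It was called in 70.4% of RA-activated regions with RA 0.01 µM, 76.1% with RA 1 µM, 80.6% with the combination, 61.3% with MC_2580 and 62.6% with DMSO. Over all merged regions the shares were 50.9%, 54.1%, 58.5%, 52.9% and 53.5% in the same order. Set against DMSO, the RA-activated regions moved by 7.83, 13.5 and 18.0 points in the 3 RA conditions. All merged regions moved by −2.57, 0.645 and 5.01 points, so the larger movement was not shared by the merged regions as a whole. It was not particular to RA-activated regions either. Regions called only with RA 1 µM moved by 8.78, 12.6 and 14.8 points in the same order. Those called only in the combination moved by −0.807, 4.24 and 20.7 points. Counted in bases, H3K4me1 peaks covered 40.0% of the bases of RA-activated regions with RA 0.01 µM, 45.4% with RA 1 µM, 51.2% with the combination, 37.7% with MC_2580 and 37.2% with DMSO.

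**Figure D2:**
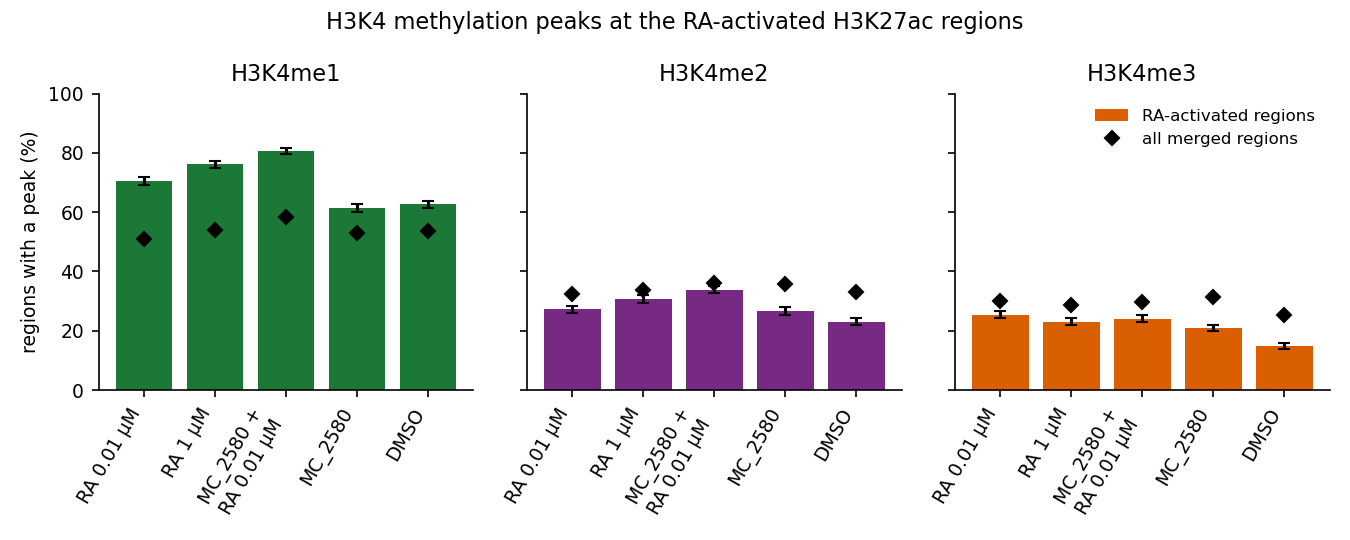
Share of the 5122 RA-activated regions (bars, %, with exact 95% binomial intervals) and of all 64202 merged regions (diamonds) with a peak of each mark in each condition, 1 library per bar. H3K4me1 stood at 70.4 to 80.6% in the RA conditions, against 61.3% with MC_2580 and 62.6% with DMSO.

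Gains of H3K4me1 were counted, by definition, in regions where DMSO had none. Of the 1916 RA-activated regions without H3K4me1 in DMSO, 33.4% gained it with RA 0.01 µM, 41.4% with RA 1 µM, 50.3% with the combination and 11.6% with MC_2580. Among all merged regions without it, 6.81%, 9.29%, 14.7% and 5.60% gained it in the same order. The contrast with lost regions held in each bin of width: with RA 1 µM, H3K4me1 was gained by 36.3%, 39.6% and 47.5% of RA-activated regions of 1 to 2 kb, 2 to 4 kb and 4 kb and over, against 2.70%, 5.62% and 1.54% of lost regions in those bins. With MC_2580 the 2 classes did not differ beyond their intervals in any of these bins; at 4 kb and over the gains were 12.8% and 10.8% (difference 2.01 points, −8.11 to 8.15). Regions called only with RA 1 µM gained H3K4me1 at that dose in 28.4%, and RA-activated regions differed from them by 9.66 points (4.24 to 15.2) at 1 to 2 kb by −1.45 points (−8.03 to 4.97) at 2 to 4 kb and by −18.0 points (−33.1 to 0.543) at 4 kb and over, where 47.5% of RA-activated and 65.5% of RA 1 µM only regions gained it. From 2 kb on, a higher gain in regions that the combination also acetylated was therefore not seen.

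H3K4me1 followed the same on and off pattern as H3K27ac in 553 RA-activated regions (10.8%, against 2.56% of all merged regions), being called with RA 1 µM and the combination and with neither MC_2580 nor DMSO. The share was also 10.8% (299 of 2778) in regions called only with RA 1 µM, and 5.3% in those called only in the combination. H3K4me1 was called in all 5 conditions in 2742 RA-activated regions (53.5%, against 45.8% of all merged regions). It was called in no condition in 858 (16.8%, against 38.1% of all). H3K4me2 followed the pattern in 239 regions (4.67%, against 1.22% of all) and H3K4me3 in 151 (2.95%, against 0.726% of all). In regions called only with RA 1 µM these shares were 0.864% and 1.26%. In most RA-activated regions the H3K4me1 call was therefore the same in all 5 conditions, as it was in most merged regions.

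H3K4me1 with the low dose of RA was not limited to regions acetylated at that dose. Among the 1631 RA-activated regions without a RA 0.01 µM H3K27ac peak, H3K4me1 was called in 75.9% (interval 73.8 to 78.0) with RA 0.01 µM, 81.1% with RA 1 µM, 85.7% with the combination, 65.1% with MC_2580 and 65.1% with DMSO. Of those without H3K4me1 in DMSO, 236 of 570 (41.4%, 37.3 to 45.6) gained it with RA 0.01 µM. The regions that did have a RA 0.01 µM H3K27ac peak gained it in 404 of 1346 (30.0%, 27.6 to 32.5). Both groups of regions come from the same libraries. They differed in other ways in DMSO: H3K4me2 was called in 26.9% of those called with RA 0.01 µM against 14.7% of those not called (difference 12.2 points, 9.90 to 14.4), and H3K4me3 in 17.3% against 9.5% (7.77 points, 5.82 to 9.62). Their median widths were 3687 and 2405 bases.

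H3K4me2 increased less, and here MC_2580 alone moved in the same direction as RA. It was called in 27.3% of RA-activated regions with RA 0.01 µM, 30.8% with RA 1 µM, 33.9% with the combination, 26.6% with MC_2580 and 23.0% with DMSO. Over all merged regions the shares were 32.3%, 33.6%, 36.0%, 35.9% and 33.2% in the same order. The net change with MC_2580 was 3.61 points (2.83 to 4.39), against 2.70 points over all merged regions, a share near the background. With RA 1 µM it was 7.77 points (6.80 to 8.74), against 0.393 over all merged regions. Regions lost with RA went the other way with RA 1 µM, by −8.58 points (−11.2 to −6.00), and gained 10.0 points (7.30 to 12.7) with MC_2580.

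H3K4me3 was called in 25.4% of RA-activated regions with RA 0.01 µM, 23.1% with RA 1 µM, 24.1% with the combination, 20.9% with MC_2580 and 14.8% with DMSO, against 30.2%, 28.8%, 29.7%, 31.4% and 25.3% of all merged regions in the same order. The DMSO list was the shortest H3K4me3 list, with 21688 peaks against 26271 to 29872 in the others, and its part in the difference was not tested. Over all merged regions the change with MC_2580 was 6.03 points, close to the 6.11 points of RA-activated regions. With RA 1 µM the RA-activated regions changed by 8.26 points (7.45 to 9.06) and all merged regions by 3.44. The combination value rests on the library whose labels disagree on the RA dose.

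**Figure D3:**
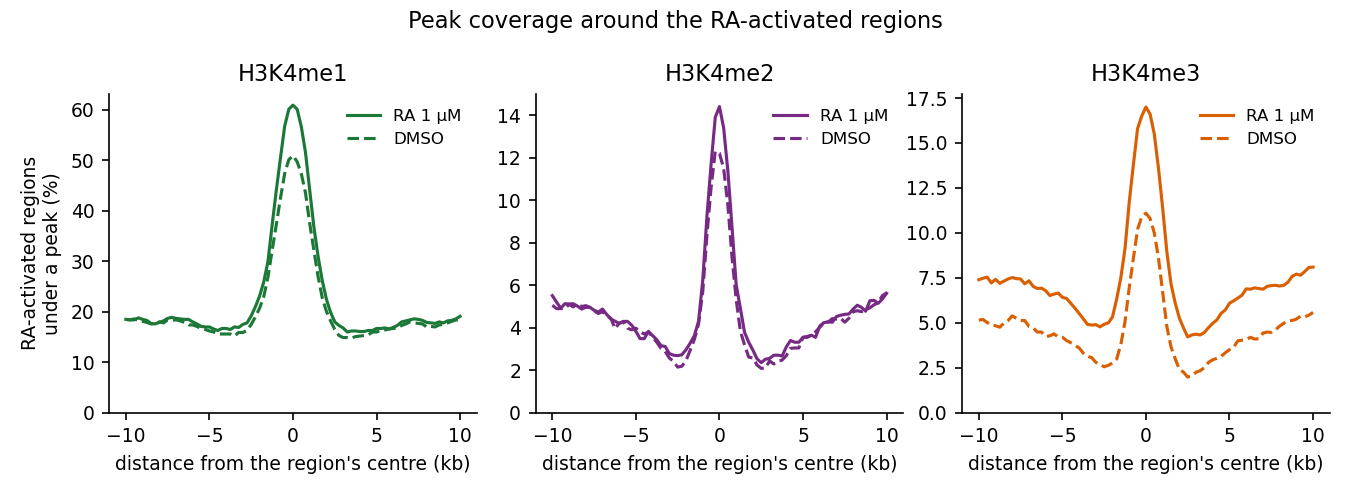
Share of the 5122 RA-activated regions (%) covered by a peak at each distance (kb) from the region's centre, with RA 1 µM (solid) and DMSO (dashed). H3K4me1 covered 60.9% of centres with RA 1 µM and 50.9% with DMSO, and 18.5% in both at 10 kb upstream, whereas H3K4me3 was higher with RA 1 µM at that distance too (7.40% against 5.15%).

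The plot of coverage around the centres shows that H3K4me1 differed more between conditions at the centres than at 10 kb, where it covered 18.5% of regions in both conditions upstream and 19.1% with RA 1 µM against 18.3% with DMSO downstream. H3K4me3 was called more often with RA 1 µM at the centres and at 10 kb. At 2 kb downstream, H3K4me1 covered 22.5% of regions with RA 1 µM and 20.1% with DMSO. H3K4me2 covered 14.4% of centres with RA 1 µM and 12.2% with DMSO, against 5.51% and 5.06% at 10 kb upstream and 5.62% and 5.64% at 10 kb downstream.

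Regions with no prior methylation and regions with prior H3K4me1 are described apart, because a mark already called in DMSO cannot be gained. Of the 1800 regions without any methylation peak in DMSO, 33.3% had H3K4me1 with RA 0.01 µM, 40.8% with RA 1 µM, 49.6% with the combination and 10.9% with MC_2580. H3K4me2 was called in 3.67%, 7.22%, 7.28% and 1.67% of them and H3K4me3 in 4.39%, 3.72%, 4.00% and 1.89%, in the same order. H3K4me1 was thus the most frequent new mark. Its lists were also the longest, at 54181 to 72810 peaks, against 39302 to 50736 for H3K4me2 and 21688 to 29872 for H3K4me3. The part of list length was not tested. Matching shares for all merged regions without a methylation peak in DMSO are not given here. No methylation peak was called in any condition in 778 RA-activated regions (15.2%, against 35.6% of all merged regions). Of all 3206 RA-activated regions with H3K4me1 in DMSO, 3.18% had lost the call with RA 1 µM and 8.98% with MC_2580, against 6.88% and 5.87% of all merged regions with H3K4me1. The 2051 regions with lone H3K4me1 in DMSO gained H3K4me2 in 14.7% with RA 0.01 µM, 18.5% with RA 1 µM, 24.3% with the combination and 12.0% with MC_2580. All merged regions without H3K4me2 in DMSO gained it in 3.81%, 5.75%, 7.52% and 6.61%, in the same order. Of those 42859 merged regions, 28613 had no methylation peak in DMSO. Where DMSO had H3K4me1 and no H3K4me2, merged regions gained H3K4me2 with MC_2580 in 54.4% with LSD1 in DMSO and 14.8% without. For RA-activated regions of that kind the shares were 45.9% and 11.4%, so a higher gain with MC_2580 was not seen in them. Of the 444 regions with H3K4me1 and H3K4me2, 41.0% gained H3K4me3 with RA 0.01 µM, 32.9% with RA 1 µM, 35.4% with the combination and 33.1% with MC_2580, against 7.18%, 5.64%, 6.77% and 8.33% of all merged regions without H3K4me3 in DMSO. Of those 47937 merged regions, 28613 had no methylation peak in DMSO. In the regions of all 5 lists without H3K4me3 in DMSO the gains were 28.7%, 23.1%, 27% and 34.3%, in the same order.

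LSD1 and GFI1 were uncommon at RA-activated regions. LSD1 was called in 568 with MC_2580 (11.1%, interval 10.2 to 12.0; 23.1% of all merged regions) and in 315 with DMSO (6.15%, 5.51 to 6.84; 14.6% of all). GFI1 was called in 620 (12.1%, 11.2 to 13.0; 17.5% of all), and both LSD1 in DMSO and GFI1 in 177 (3.46%; 9.32% of all). The factors were rarer still in regions called only with RA 1 µM, at 1.37% for LSD1 in DMSO and 4.57% for GFI1. Neither factor was called in any list in 4136 RA-activated regions (80.7%, against 70.7% of all merged regions). With a minimum score of 100, GFI1 was called in 6.10% and LSD1 in DMSO in 10.4% of the regions then meeting the rule. The LSD1 lists start at 234 in DMSO and 357 with MC_2580, so this minimum removed no LSD1 peak. The GFI1 list starts at 50 with a median score of 72.7, so most GFI1 peaks were removed. The regions meeting the rule changed as well. The reversed order of these shares therefore does not rank the factors. Within 500 bases of the centre GFI1 was called in 7.11%. The LSD1 list of MC_2580 started at a higher score than that of DMSO, so presence in them is not on one scale; with the minimum of the MC_2580 list applied to both, 155 regions (3.03%) held LSD1 in DMSO. Of the 315 regions with LSD1 in DMSO, 271 (86.0%, 81.7 to 89.7) also had it with MC_2580, against 94.8% of all merged regions with LSD1 in DMSO, and 44 had it in DMSO only.

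The 2 factors overlapped in part. GFI1 was called in 56.2% (50.5 to 61.7) of the RA-activated regions with LSD1 in DMSO, against 9.22% (8.41 to 10.1) of those without. Conversely, 28.5% (25 to 32.3) of the 620 regions with GFI1 had LSD1 in DMSO, and 443 had not. In the regions of all 5 lists the corresponding shares were 64.7% and 23.6%. LSD1 peaks were centred a median of 545 bases from the region's centre and GFI1 peaks 758 bases. LSD1 in DMSO was called in 0.444% of regions with no prior methylation, 3.56% of those with lone H3K4me1, 18.7% of those with H3K4me1 and H3K4me2 and 23.1% of those with all 3 marks, and GFI1 in 5.17%, 11.6%, 22.3% and 26.4% in the same order.

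Within bins of width from 1 kb on, RA-activated regions held less LSD1 and GFI1 than regions acetylated throughout. LSD1 in DMSO was 37.3 points less frequent in RA-activated regions than in the regions of all 5 lists (interval of the difference −38.3 to −36.3). By width the difference was −6.46 points (−10.3 to −3.35) at 1 to 2 kb, −21.8 (−23.3 to −20.3) at 2 to 4 kb and −43.7 (−45.3 to −42.0) at 4 kb and over. Under 1 kb there were 34 RA-activated regions and 3 of all 5 lists, none with LSD1. The last bin has no upper end and holds more very wide regions of all 5 lists. Cut at 10 kb, with median widths of 5441 bases in RA-activated regions and 5970 in regions of all 5 lists, LSD1 was called in 7.48% and 43.0% (−35.5 points, −37.2 to −33.7) and GFI1 in 17.2% and 40.3% (−23.2 points, −25.3 to −20.9). Against the lost regions it was −3.72 points (−7.19 to −1.04) at 2 to 4 kb and −13.3 (−18.5 to −8.76) at 4 kb and over, and GFI1 differed by −7.24 (−11.5 to −3.62) and −14.9 (−20.7 to −9.37) in those bins. At 1 to 2 kb neither factor differed from lost regions beyond its interval. Regions called only with RA 1 µM held LSD1 in DMSO in 1.17% at 1 to 2 kb and 2.08% at 2 to 4 kb, against 3.68% and 5.09% of RA-activated regions. At 4 kb and over it was 4.6% against 8.89%, with an interval of the difference of −2.45 to 7.42. GFI1 was called in 2.71%, 8.18% and 28.7% of them in these bins, against 6.55%, 8.74% and 19.5% of RA-activated regions.

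Regions called only in the combination, where the LSD1 inhibitor and low-dose RA were given together, held more of both factors than RA-activated regions in the bins from 2 kb on. GFI1 was called in 8.74% of RA-activated and 22.9% of combination-only regions at 2 to 4 kb (difference −14.2 points, −17.2 to −11.4), and in 19.5% and 48.8% at 4 kb and over (−29.3 points, −37.2 to −21.4). LSD1 in DMSO was called in 5.09% and 10.1% of them at 2 to 4 kb (−5.06 points, −7.30 to −3.04). At 1 to 2 kb, where 2321 of the 3964 combination-only regions lie, GFI1 was called in 6.55% of RA-activated and 9.22% of combination-only regions (−2.67 points, −4.53 to −0.615), and LSD1 in 3.68% and 3.19% (0.496 points, −0.79 to 2.01). Without regard to width the differences were −1.09 points for GFI1 (−2.48 to 0.284) and 0.65 points for LSD1 (−0.329 to 1.61), since the combination-only regions were narrower.

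**Figure D4:**
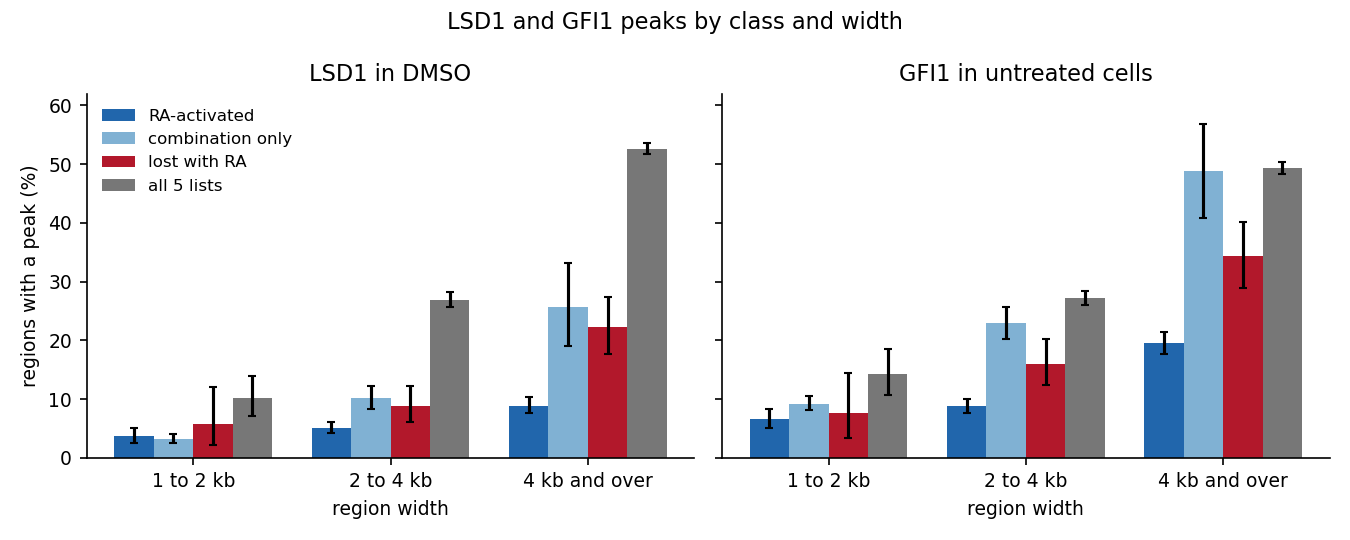
Share of regions (%) with an LSD1 peak in DMSO (left) or a GFI1 peak in untreated cells (right), by width, for RA-activated regions, regions called only in the combination, regions lost with RA and regions called in all 5 H3K27ac lists, with exact 95% binomial intervals. At 4 kb and over, LSD1 was called in 8.89% of RA-activated regions against 52.6% of regions of all 5 lists.

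With MC_2580 alone, H3K4me2 and H3K4me3 were newly called more often in RA-activated regions with LSD1 than in those without. Of 82 RA-activated regions with LSD1 and without H3K4me2 in DMSO, 34 (41.5%) gained H3K4me2 with MC_2580, against 268 of 3860 (6.94%) of those without LSD1, a difference of 34.5 points (24.4 to 45.4). Among regions that also had H3K4me1 in DMSO the shares were 45.9% of 74 with LSD1 and 11.4% of 2043 without (34.6 points, 23.6 to 45.9), at median widths of 3576 and 3202 bases. For the full sets of 82 and 3860 regions, whatever their H3K4me1, the shares with RA 1 µM were 30.5% and 13.2% (17.3 points, 8.35 to 28.0). With the combination they were 52.4% and 15.9% (36.6 points, 25.8 to 47.1). GFI1 went with the same order: 22.3% of the 341 regions with GFI1 gained H3K4me2 with MC_2580, against 6.28% of those without. H3K4me3 was gained with MC_2580 by 35.8% of the regions with LSD1 and 6.31% of those without. This link was not particular to RA-activated regions, since 61.2% of the regions of all 5 lists with LSD1 and 27.1% of those without gained H3K4me2 with MC_2580, as did 49.7% and 5.34% of all merged regions. Examples of gain with MC_2580 lay at chr13:79637486-79645530, where H3K4me2 scored 61.6 and GFI1 98.9, and at chr19:43338985-43343961, where it scored 81.8 and neither LSD1 nor GFI1 was called.

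The RA-activated regions had a median width of 3158 bases (quartiles 2193 and 4878), against 5392 bases for regions of all 5 lists, 3439 for lost regions, 1477 for regions called only with RA 1 µM and 1526 for those called only in the combination. A merged region grows with the number of lists that call it, so regions called in several lists are wider by construction. Widths of 10000 bases or more were reached by 203 RA-activated regions (3.96%) and by 3659 regions of all 5 lists (24.1%). The widest, chr19:53776994-53864240 (87247 bases), and the third widest, chr19:10220853-10285362 (64510 bases), were of another kind. Both had H3K4me3 scores of at least 3100 in all 5 conditions, LSD1 and GFI1 peaks and no H3K27ac peak with RA 0.01 µM, MC_2580 or DMSO, and for the third widest an H3K27ac peak of MC_2580 or DMSO began 39 bases away. H3K4me3 was thus called there before any treatment with RA, unlike in most RA-activated regions.

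The rule excluded overlap with acetylation of MC_2580 or DMSO, and the gaps to it are given here for RA-activated regions only. Whether these gaps differ from those of other classes was not tested. The median gap to the nearest H3K27ac peak of MC_2580 or DMSO was 11364 bases (quartiles 3900 and 32238). It was at most 1000 bases in 379 regions (7.40%) and at most 10000 bases in 2407 (47.0%, 45.6 to 48.4). Regions within 10000 bases and regions beyond had H3K4me1 in DMSO in 62.3% and 62.9% (difference −0.596 points, −3.25 to 2.06), and LSD1 in 6.27% and 6.04% (0.233 points, −1.08 to 1.57).

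Most regions lay alone. With a gap of at most 12.5 kb between neighbours, 3665 (71.6%) had no RA-activated neighbour, 481 pairs formed, and 495 regions (9.66%, 8.87 to 10.5) fell into 144 clusters of at least 3. That share was 4.37% with a minimum score of 100 on the required peaks and 3.96% with peaks within 1000 bases joined. It was higher in classes with more regions, at 37.2% for the 19071 called only with RA 0.01 µM and 22.8% for the 15212 of all 5 lists, and was 7.95% for the 3964 called only in the combination. Clustered regions carried less prior methylation: no methylation peak was called in DMSO in 55.6% (51.1 to 60) of them against 33.0% (31.6 to 34.3) of the other RA-activated regions, and H3K4me1 in 41.4% against 64.9%. A RA 0.01 µM H3K27ac peak was called in 72.3% and 67.7%, and GFI1 in 12.1% of both.

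The largest cluster, at chr20:17734236-17826193, held 10 RA-activated regions in 91958 bases, all of them also called with RA 0.01 µM. Gaps of 28, 76 and 7 bases separated 4 of the regions, which lie nearly end to end. The cluster contained 15 H3K27ac peaks with RA 0.01 µM, 11 with RA 1 µM, 15 with the combination and none with MC_2580 or DMSO. H3K4me1 had 3, 6 and 6 peaks with RA 0.01 µM, RA 1 µM and the combination, 1 with MC_2580 and 4 with DMSO, and H3K4me2 had 7, 7, 5, 1 and 2 in the same order. No LSD1 or GFI1 peak was called in it, and 7 of its 10 regions had no methylation peak in DMSO. Acetylation therefore covered a stretch that was largely unmarked in DMSO.

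**Figure D5:**
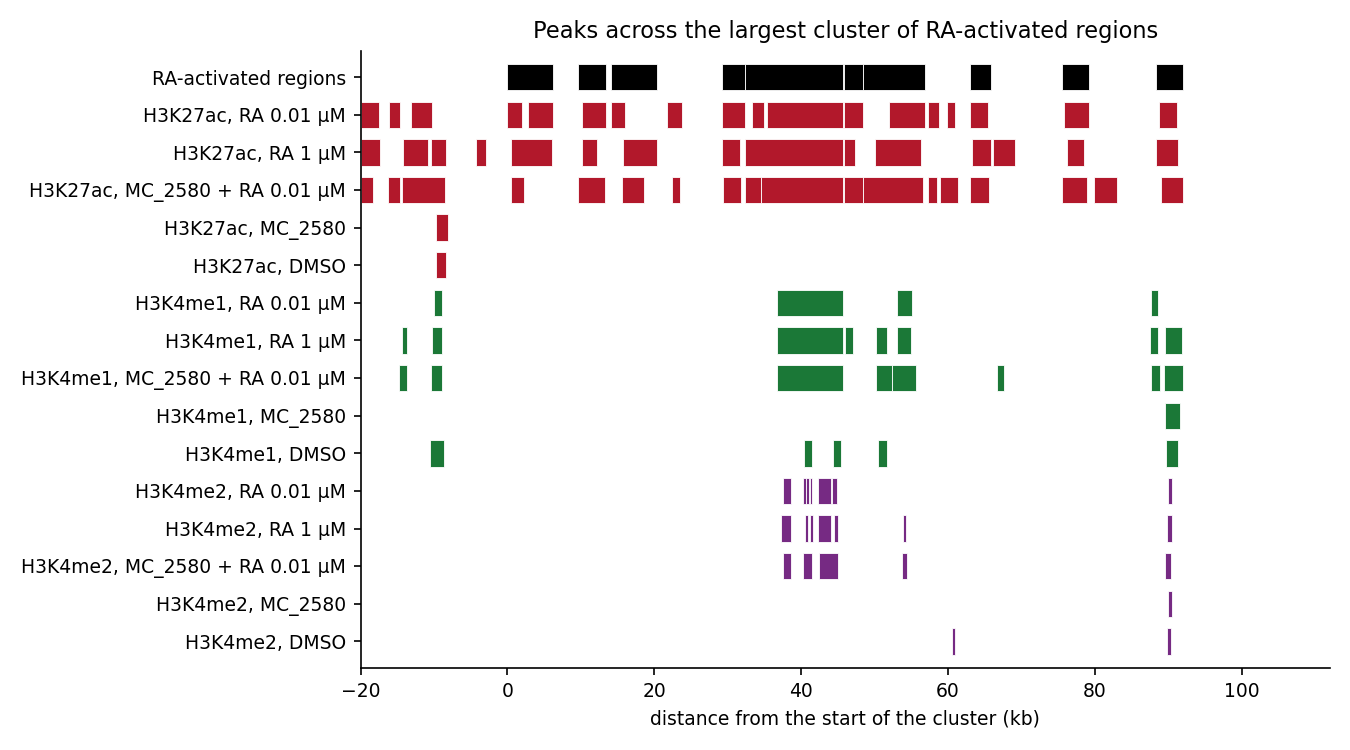
Peaks of H3K27ac, H3K4me1 and H3K4me2 in each condition (bars) across the largest cluster of RA-activated regions (black) and 20 kb on either side, by distance in kb from the cluster's start. Within the cluster H3K27ac had 15, 11 and 15 peaks with RA 0.01 µM, RA 1 µM and the combination, and none with MC_2580 or DMSO.

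The next clusters were alike in this. At chr1:12468325-12551654, 8 regions lay in 83330 bases, with 17, 11 and 10 H3K27ac peaks in the 3 RA conditions in the order above and none with MC_2580 or DMSO, with no LSD1 or GFI1 peak, and 6 of the 8 had no methylation peak in DMSO. At chr10:94922513-94974698, 7 regions lay in 52186 bases with 1 GFI1 peak and no LSD1 peak. Counted in fixed 100 kb windows, RA-activated regions fell into 3670 windows, of which 2677 held 1 region. The fullest began at chromosome 20 position 17700001 with 9 regions, followed by chromosome 10 position 125200001 with 8. Chromosome 10 positions 94900001 and 125100001 and chromosome 16 position 15500001 followed with 7 regions each, so that 2 neighbouring windows of chromosome 10 together held 15. In the chromosome 16 window 3 LSD1 peaks and 4 GFI1 peaks were called, in the other 4 windows no LSD1 peak in DMSO.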

How the data were processed

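ChIP-seq peak lists of 23 samples, each from 1 library, were analysed; the 2 input samples had no list and were not used. Per the submitters' processing notes, MACS 1.4.1, Bowtie 1.0.1, CASAVA 1.8, bcl2fastq 2 and FastQC (0.10.0 and 0.11.5) were used with hg18, with no role or order given. The deposited score of each peak is the value the authors' peak caller gave; it was used to rank and filter peaks, and the lower of the RA 1 µM and combination scores ordered the regions. Scores of different libraries are not on one scale and are set side by side as description. The LSD1 lists start at higher scores than the others (50), and at a higher one with MC_2580 than with DMSO, by a step not given in the sources used here. Starts below 0 in 8 peaks were set to 0.

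Overlap code (SciPy 1.17.1 and NumPy 2.4.6 under Python 3.11.15) was tested on simulated lists; figures used Matplotlib 3.10.9. A mark was present where at least 1 base of a peak overlapped. Chains of regions with gaps of at most 12.5 kb formed clusters from 3 regions on. Intervals are exact binomial for shares, Newcombe for differences between classes and a paired normal interval for changes between conditions; they cover counting error only. The regions named were the 6 highest by that lower score (the 6 widest of 22 regions tied at the highest value), the 3 widest, the 5 fullest 100 kb windows, the 3 largest clusters, the 2 highest of each prior state, of LSD1 with GFI1 and of H3K4me2 gain, and the regions just inside and outside the rule; not all are printed. Members, classes and tests were chosen with earlier results of these data known. No genome of the hg18 build was used, so no gene names or sequences are given. Alternatives tried were a minimum score of 100 everywhere or only for the required peaks, 50% overlap, joining peaks within 1000 bases, requiring RA 0.01 µM, autosomes only, a window of 500 bases on either side of the centre and, added after seeing the data, leaving MC_2580 out of the rule and 1 minimum score for LSD1.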

Additional observations from a re-analysis of the deposited data

How the results depend on the processing

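Only the net H3K4me2 change with MC_2580 and the class differences in H3K4me1 and LSD1 could change sign, and none of them did. Of all values under the alternatives, 54 moved beyond the main interval or, for the number of regions, beyond a set ratio, and 46 did not. A minimum score of 100 removed no LSD1 peak, because the LSD1 lists start at higher scores. Shares below are of the RA-activated regions each alternative leaves, named in this order where they left the main interval: H3K4me1, H3K4me2 and H3K4me3 in DMSO, LSD1 in DMSO, GFI1. With a minimum score of 100 in every list they were 67.6%, 27%, 18.7%, 10.4% and 6.10%, the net H3K4me2 change with MC_2580 was 4.86 points, the median width 4013 bases, 7.18% lay in clusters and 38.2% within 10000 bases of MC_2580 or DMSO acetylation, and the H3K4me1 difference from combination-only regions was 18.2 points. With the minimum applied only to the required peaks, 2267 regions remained, 77.5% of them called with RA 0.01 µM; the shares were 72.7%, 27%, 17.6%, 7.59% and 14.1%, the net H3K4me2 change 4.81 points, the width 3992 bases, 4.37% in clusters and 44.0% near acetylation, and the H3K4me1 difference 15.2 points. Joining peaks within 1000 bases gave 65.9%, 24.9% and 15.9% for methylation, 13.1% for GFI1, 3599 bases, 3.96% in clusters, 37.6% near acetylation, an H3K4me1 difference of 27.9 points and an LSD1 difference from regions of all 5 lists of −39.1 points. Fewer neighbours remain by construction when peaks are joined. Around the centre only (500 bases on either side) the shares were 56.3%, 17.0%, 12.4%, 4.98% and 7.11%, the net H3K4me2 change 2.44 points and the differences 20.1 (H3K4me1) and −26.1 (LSD1). Requiring a RA 0.01 µM peak gave H3K4me2 26.9%, H3K4me3 17.3%, 3687 bases, 7.53% in clusters and 48.8% near acetylation. A 50% overlap gave H3K4me1 60.1% and a difference of 27.4 points. Leaving MC_2580 out of the rule gave H3K4me2 24.5%, LSD1 7.64%, GFI1 14.1%, 3276 bases, 45.1% near DMSO acetylation and an LSD1 difference of −35.8 points. The minimum score of the MC_2580 list for LSD1 gave 3.03% and −25.5 points. On the autosomes alone no value left its interval. Beyond these constructions the cause was not tested.

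No paired analysis was possible because each group held 1 library, and for the same reason leaving out a replicate was not run. Every share depends on peak calling at a depth the lists do not give, and a missing peak does not show absence.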

Other observations

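RA-activated regions made up between 6.16% (chromosome 22) and 9.21% (chromosome 10) of the merged H3K27ac regions of the numbered autosomes, with 7.98% over the genome. On chromosome X the share was 11.0% (142 of 1296, interval 9.31 to 12.8), the highest of the chromosomes with more than 100 merged regions. Of the 1916 RA-activated regions without H3K4me1 in DMSO, 1203 (62.8%) had an H3K4me1 peak of DMSO within 10000 bases, at a median gap of 6453 bases over all of them. For H3K4me2 the median gap was 14074 bases over 3942 regions, and for H3K4me3 21894 bases over 4364 regions. The DMSO lists held 57630 H3K4me1, 40598 H3K4me2 and 21688 H3K4me3 peaks, and a longer list leaves shorter gaps to any region. These gaps are given for RA-activated regions only, and whether they differ from those of other merged regions was not tested.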
